A study of Mus musculus with 19 samples.

Results

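The genes described here are the mouse zinc finger protein genes named Zfp and a number. They were chosen by their basal RNA counts, as the Zfp symbols with a mean of 50 or more counts over the 4 basal RNA-seq libraries of wild-type hippocampal slices, which left 191 of 330 Zfp genes in a table of 20436 genes. Because basal RNA chose the members, their basal RNA levels and their RPF to RNA ratio at rest are given as a description. Later tests that use basal RNA give counts of members as a description too. The members with the lowest mean counts were Zfp111 (50.25), Zfp341 (50.5) and Zfp870 (51), and the genes just under the minimum were Zfp866 (49.25), Zfp939 (48) and Zfp7 (47.25). Of the 139 Zfp genes under the minimum, 6 had 0 counts in all 4 basal libraries. The median member had a mean of 121.5 counts, against 259.25 for all 10257 genes at or over the same minimum, and no member had an RPF count of 0 in any library.

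The study asked how activation of group I metabotropic glutamate receptors, which induces long-term depression, changes the RNAs and the translation of the hippocampus. Slices of wild-type male mice, 28 to 42 days old per the labels and 30 to 40 days old per the study's methods, were incubated for 5 min with the receptor agonist dihydroxyphenylglycine (DHPG) at 100 µM or with vehicle (basal), and all slices then received cycloheximide at 100 µg/ml. Slices of 6 mice were pooled for each replicate, CA3 was left in place, and one lysate gave both the RNA-seq library and the ribosome profiling library. Ribosome profiling counts the ribosome-protected fragments (RPFs) of mRNA that a ribosome shields from nuclease. There were 4 basal and 5 DHPG RNA libraries, and 5 basal and 5 DHPG RPF libraries. DHPG RNA replicate 5 had no basal partner and gives no paired difference, but it entered the filter on low counts and the normalization. In the RNA fit by replicate number it stood alone, so it left no residual for the estimate of the spread. Replicates were separate pools of animals. The main tests were fitted by replicate number, so their p-values set a difference against its spread across replicate numbers.

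Most Zfp proteins carry fingers of the C2H2 kind, short loops in which cysteines and histidines hold a zinc ion, and strings of such fingers read DNA sequence. Many also carry a KRAB box, a segment that binds the corepressor TRIM28 and brings in histone methylation to silence genes and transposons. Other members act on mRNA, ribosomes or ubiquitin instead. The family has grown by tandem duplication, so that members lie in clusters and share long stretches of coding sequence.

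That history was visible in the annotation (GENCODE M21, mm10). Of the 191 members, 57 (29.8%) lay on chromosome 7, which holds 7.40% of all genes at or over the minimum, and 85 members (44.5%) lay within 100000 bases of another member. A C2H2 pattern was counted wherever a translated protein had a cysteine, 2 to 4 residues, a cysteine, 12 residues, a histidine, 3 to 5 residues and a histidine. Counts ran from 0 in 5 members to 37 in Zfp142, with a median of 10. A KRAB box pattern was found in 79 members and not in the other 112.

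Identical stretches between members are printed here because a footprint of about that length cannot be placed in one gene, and the authors kept only reads with a single place in the genome. The first window lies in 4 neighbours on chromosome 7 (mm10), namely Zfp235 (exon 4, chr7:24142006-24142035, plus strand), Zfp111 (exon 2, chr7:24198196-24198225, minus strand), Zfp109 (exon 4, chr7:24228279-24228308, minus strand) and Zfp93 (exon 4, chr7:24276362-24276391, plus strand). It spans the linker and the start of a finger, and capitals mark the codons of the zinc-binding cysteines.
Finger window: aagccgttcaagTGTgaggagTGTgggaag
The second lies in exon 2 of 4 neighbours on the minus strand of chromosome 13, namely Zfp458 (chr13:67260136-67260165), Zfp87 (chr13:67521212-67521241), Zfp748 (chr13:67546644-67546673) and Zfp738 (chr13:67673581-67673610), within the KRAB box. Capitals mark the codons of the fixed letters of the searched pattern.
KRAB box window: CTGTACagggacGTGatgctggagaattac

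Most coding sequence of the members was still particular to its gene. The median member shared 0.174% of its 30-base coding windows exactly with the transcript of another annotated gene, pseudogenes included. For all genes with lengths at or over the minimum the median was 0%. In 25 members (13.1%) the share was 10 percent or more, against 13.8% of all these genes. The median was 1.04% with a KRAB box pattern and 0% without it, and 22.8% and 6.25% of these classes shared 10 percent or more. The members with the most shared windows were Zfp706 (100%), Zfp932 (76.6%), Zfp617 (74.9%), Zfp738 (57.7%) and Zfp330 (53.8%). Their counts are less certain, but how far the sharing affects them was not tested. In the finger cluster, Zfp93 shared 50% of its windows, against 16.5% in Zfp235, 14.7% in Zfp111 and 11.0% in Zfp109.

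The libraries held 4899202 to 7793244 RNA counts and 5692064 to 22092434 RPF counts. Markers of hippocampal excitatory neurons, astrocytes, oligodendrocytes, microglia, vessels and interneurons were above 0 in every group. The summed oligodendrocyte markers ran from 2650 to 5638 CPM (counts scaled by edgeR to the size of the library) in basal and 3027 to 6326 CPM in DHPG RNA, and from 4297 to 8987 and 4980 to 10120.5 CPM in RPF. The summed thalamus markers ran from 143 to 174 and 148 to 195 CPM in RNA, and from 230 to 290 and 247 to 330 CPM in RPF. The part of these markers in the results was not tested. In such bulk tissue, fewer cells of a type and less RNA per cell cannot be told apart.

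The 191 members together held a smaller part of the RPFs than of the RNA. They took 0.556% to 0.722% of the counts of the basal RNA libraries and 0.432% to 0.451% of the basal RPF libraries. After DHPG the shares were 0.596% to 0.730% of RNA and 0.418% to 0.440% of RPF counts, so the ranges of RNA and RPF did not overlap in either condition. These shares are not per length, since RNA was counted on whole transcripts and RPFs on coding sequences. The median transcript had 3619 bases in the members and 3277 in all genes with lengths at or over the minimum, with coding lengths of 1809 and 1503. Basal RNA counts also chose the members. Replicate pools differed more in RNA than in RPF: the median coefficient of variation of a member's CPM was 21.5% over the 4 basal RNA libraries and 10.8% over the 5 basal RPF libraries. For all genes at or over the minimum these values were 16.4% and 8.93%.

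In replicates 3 and 4 the RNA level moved the same way in both conditions. The members with a KRAB box pattern stood highest in replicate 4, where the median member was 0.32 (basal) and 0.22 (DHPG) above its own mean over the 9 RNA libraries on the log2 scale. They stood lowest in replicate 3, with medians of -0.30 (basal) and -0.25 (DHPG). Over all 10216 genes with lengths, the deviation of a gene's RNA level correlated with its GC content at a Spearman rho of -0.65 (basal) and -0.47 (DHPG) in replicate 4 and of 0.70 and 0.68 in replicate 3. Replicate 1 gave KRAB medians of 0.12 (basal) and -0.027 (DHPG), with rho of -0.54 and -0.23, and replicate 2 gave -0.081 and -0.19, with rho of 0.38 and 0.32. Genes are not independent replicates, and the part of this GC trend in the members' levels was not tested.

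By level per kilobase of transcript, the highest members in basal RNA were Zfp365, Zfp277, Zfp771, Zfp207 and Zfp106. Zfp365, whose protein binds the neurodevelopmental scaffold DISC1, had 327, 331, 292 and 389 CPM in basal RNA replicates 1 to 4. That is 78.6 ± 9.44 CPM per kilobase (SD, n = 4), above 91.7% of the genes at or over the minimum. Zfp277 followed with 65.1 ± 16.8, Zfp771 with 58.8 ± 22.7, Zfp207 with 55.1 ± 5.70 and Zfp106 with 41.6 ± 12.8 CPM per kilobase (SD, n = 4). Neighbours in this order differed by less than the larger of their SDs, other than Zfp207 and Zfp106. The median member stood at 5.53 CPM per kilobase of transcript in RNA and 8.41 CPM per kilobase of coding sequence in RPF, and all genes at or over the minimum had medians of 13.7 and 25.7.

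The RPF to RNA ratio sets the footprints of a gene, per coding length, against its RNA, per transcript length. It was taken per replicate on the log2 scale and centred on the median of all genes at or over the minimum. At rest the median of the 191 members was -0.25, a ratio 0.838 times that of the median gene. The medians of the 4 replicates ran from -0.48 to -0.13, below 0 in each. Of the members, 117 (61.3%) were below the median of all 10216 genes with lengths. The quartiles were -1.06 and 0.67 for the members and -0.92 and 1.02 for all these genes. Under a log2 ratio of -1 lay 26.7% of members and 23.2% of all these genes, and 18.8% and 25.5% were over 1.

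**Figure D1:**
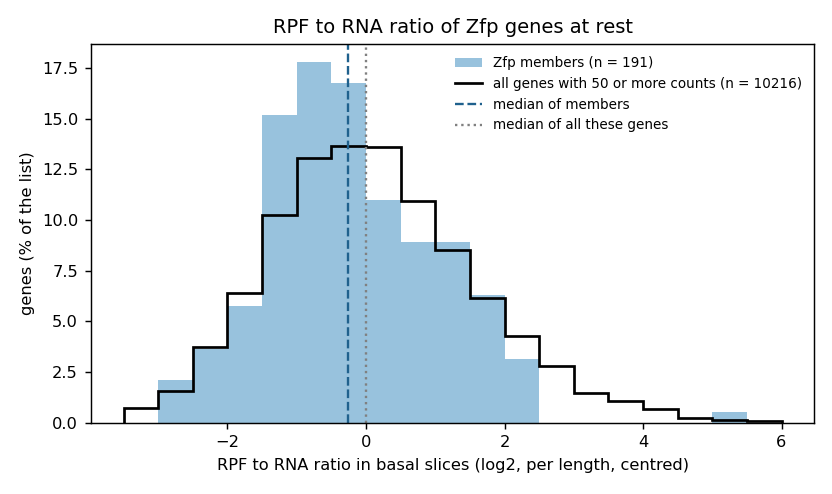
Distribution of the RPF to RNA ratio in basal slices (x axis, log2, per length, centred on the median of all genes with 50 or more counts) as the percent of each list (y axis), for the 191 Zfp members (filled) and all 10216 genes with lengths (black outline). The median of the members (dashed) lies at -0.25, left of the median of all genes (dotted), and 61 of all genes lie left and 6 right of the plotted range.

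The ratio was tested in the DHPG libraries, whose counts the choice of members did not use. Their basal partners carry the same replicate numbers, and the labels do not say whether they share animals. The counts of calls are therefore a description that may depend in part on the choice. In edgeR's quasi-likelihood test of library type with length offsets and an adjusted p of 0.05, 101 of 191 members (52.9%) were called lower than the median gene and 56 (29.3%) higher. Over the 12023 genes tested, 41.8% were called lower and 41.9% higher, and among genes at or over the minimum 43.6% were lower and 41.1% higher. The median log2 ratio of the members was -0.46. The range within the members was wide, from -3.32 to 5.38, against a median standard error of 0.14.

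Members that act on RNA and ribosomes ran from -2.74 to 2.36 at rest. Zfp36 encodes tristetraprolin, which binds AU-rich elements and speeds mRNA decay, through fingers of another kind, and it had 0 C2H2 patterns. Its basal RNA was 38.0, 39.5, 54.2 and 19.7 CPM in replicates 1 to 4, beside 176, 92.2, 96.0 and 73.5 CPM in RPF of the same replicates. Its ratio at rest was 2.36 ± 0.65 (log2, SD, n = 4), that is 5.14 times the median gene, and all 4 replicates lay between 1.63 and 3.05. After DHPG the log2 ratio was 2.24 (standard error 0.16, adjusted p in edgeR = 8.33e-08), and all 5 replicates were above 0.

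Zfp106, an RNA-binding protein of motor neurons and muscle, was at the other end. It had the highest RNA counts of the members, at 413, 336, 243 and 518 CPM in the basal replicates, but 59.4, 63.0, 55.8, 55.8 and 53.1 CPM in RPF replicates 1 to 5. RNA thus differed widely between the pools while RPF stayed between 53.1 and 63.0 CPM. Its ratio at rest was -2.74 ± 0.46, which is 0.149 times the median gene, and after DHPG it was -3.01 (standard error 0.16, adjusted p in edgeR = 4.83e-09).

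Among the other genes for RNA and ribosomes, Zfp326, which couples splicing to transcript elongation, and Zfp346, which binds double-stranded RNA, had high ratios of 1.88 ± 0.80 and 2.03 ± 0.34. Zfp622, which helps to mature the large ribosomal subunit, was at -0.01 ± 0.12, close to the median gene. Zfp598, the ubiquitin ligase that senses collided ribosomes, was low at -1.45 ± 0.24 and stood between -1.67 and -1.22 in the 4 replicates. In the ubiquitin, SUMO and spindle group, Zfp207 was at 0.38 ± 0.19, the ubiquitin ligase Zfp91 at 0.16 ± 0.20 and the SUMO ligase Zfp451 at -0.66 ± 0.20 (all log2, SD, n = 4).

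Of the promoter-binding regulators, Zfp148 and Zfp281, related factors that bind GC-rich promoters, were both high, at 1.31 ± 0.42 and 1.22 ± 0.49. Zfp384 was at 0.26 ± 0.43, Zfp410, an activator of Chd4, at -0.72 ± 0.20 and Zfp335 at -1.82 ± 0.25. Zfp143 and Zfp711 of the same list were under the count minimum.

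The 6 members on the neural development list were all below the median gene at rest. Their median coding length was 3919.5 bases, against 1809 for all members and 1503 for all genes with lengths at or over the minimum. Over all these genes a longer coding sequence went with a lower ratio (Spearman's rho -0.53), and the part of length here was not tested. Zfp423, a Smad cofactor needed for the cerebellum, was at -2.16 ± 0.32, Zfp521, a related regulator of neural fate, at -2.02 ± 0.18, and Zfp536, which restrains neuronal differentiation, at -1.98 ± 0.20. Zfp462 was at -0.72 ± 0.35, Zfp365 at -0.69 ± 0.08 and Zfp292 at -0.53 ± 0.51. All 6 were called lower in the DHPG libraries as well, with log2 ratios from -2.46 to -0.68, where 41.8% of all genes tested were. Zfp503 was under the minimum. Of the KRAB silencers listed, Zfp57 and Zfp568 were under the minimum, and Zfp809, which silences endogenous retroviruses, was at -0.08 ± 0.34.

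**Figure D2:**
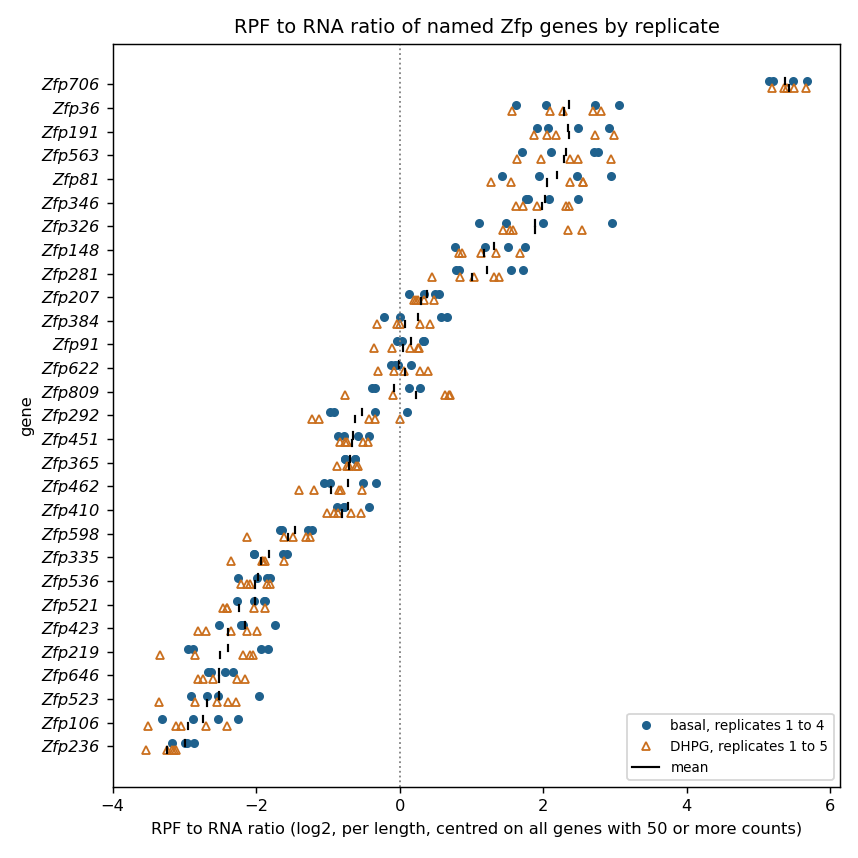
RPF to RNA ratio (x axis, log2, per length, centred on all genes with 50 or more counts) of the members on the role lists and of the 5 highest and 5 lowest members at rest (y axis, ordered by the basal mean). Circles are basal replicates 1 to 4, triangles DHPG replicates 1 to 5 and vertical strokes their means. Zfp706 stands alone at 5.37, and each of the 9 lowest genes, from Zfp236 to Zfp335, has all of its replicates under -1.

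At the extremes, Zfp706 stood far from every other member. It encodes a protein of 76 residues with 1 C2H2 pattern, and its annotated transcript of 4417 bases is mostly 3′ UTR. Its basal RNA was 21.3, 15.3, 16.5 and 21.2 CPM and its RPF level in the same replicates was 51.8, 53.1, 50.5 and 49.95 CPM. The ratio was 5.37 ± 0.25 per length, 41.4 times the median gene, but 1.68 when the length terms were left out. All of its coding windows occur elsewhere among annotated transcripts.

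The next highest after Zfp706 and Zfp36 were Zfp191 (2.34 ± 0.45), a regulator needed for myelination, Zfp563 (2.32 ± 0.50) and Zfp81 (2.19 ± 0.65). Their transcripts have 3′ UTRs of 4448, 4929 and 4904 bases, and without the length terms their values were 0.92, 1.02 and 1.11. The lowest members were Zfp236 (-3.00 ± 0.13), Zfp106, Zfp523 (-2.52 ± 0.41), Zfp646 (-2.52 ± 0.17) and Zfp219 (-2.40 ± 0.59). Zfp236 had 88.9, 93.8, 79.6 and 99.3 CPM in basal RNA and 10.8, 11.4, 10.7 and 10.5 CPM in RPF of the same replicates. All 5 kept ratios of -2.58 or lower in the DHPG libraries (adjusted p in edgeR at most 6.68e-08).

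The ratio varied with the makeup of the transcripts. Across the 191 members, Spearman's rho with the ratio at rest was -0.51 for GC content, -0.32 for coding length and 0.48 for 3′ UTR length, and -0.03 for the number of C2H2 patterns. Across all 10216 genes with lengths rho was -0.43, -0.53 and 0.39 for the first 3 features. Lengths enter the ratio itself: with the length terms left out, rho for the members was -0.47 for GC content, -0.20 for coding length and 0.13 for 3′ UTR length. Genes in one list share the same libraries, so these are descriptions.

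By number of C2H2 patterns, the ratio at rest did not run in one direction. Its median was 0.06 in the 34 members with 0 to 4 patterns, -0.70 in the 55 with 5 to 9, -0.10 in the 66 with 10 to 14 and -0.24 in the 36 with 15 or more. Members with a KRAB box pattern had a median of -0.11 and those without of -0.50. The members were also split at their median GC content (48.8%). Under it the order was reversed, with medians of 0.15 with and 0.38 without the pattern. At or over it the medians were close, at -0.92 and -0.90. The part of GC content in the class difference was not tested. For the 79 KRAB members the replicate medians ran from -0.41 to 0.25, wider than for the 112 others (-0.58 to -0.39). Neighbouring families were similar, with a median of -0.45 over 30 Zbtb genes, which pair zinc fingers with a BTB domain, and of -0.36 over 14 Zkscan and Zscan genes.

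DHPG was then compared with basal in RNA, pairing libraries by replicate number in edgeR's quasi-likelihood test. The basal libraries of this test also chose the members, so the counts of members may depend in part on the choice. No member passed an adjusted p of 0.01, where 1 of 12935 genes tested (0.00773%) did. With an unadjusted p under 0.05, 16 members (8.38%) lay higher and 4 (2.09%) lower, against 5.2% and 2.81% of all genes tested. DESeq2 with the block also called 0 members, with 5 at an unadjusted p under 0.05, and ComBat by replicate followed by DESeq2 called 2, both higher. DESeq2 there gave an adjusted p for 47 members, of which these 2 are 4.26%, and for 5662 genes in all, of which 1.15% were called higher. Shares over all genes at an unadjusted p were not taken in the DESeq2 fits. The fold changes were small: 96 members were higher and 95 lower. The median was 0.00029 on the log2 scale (0.0068 for all genes tested). The range was -0.37 to 0.36 with a median standard error of 0.12. With a count minimum of 20 for members the median was -0.013, and with a minimum of 100 it was 0.022.

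The members with the smallest p in RNA were all higher after DHPG. They were picked from these same pairs, so the agreement of their pairs is a description. Zfp532 (chromosome 18, 65579912 to 65689443) had 112, 132, 135 and 111 CPM in basal replicates 1 to 4 and 133, 146, 163 and 134 CPM in their DHPG partners. It was higher in 4 of 4 pairs, by 0.24 on the log2 scale (standard error 0.07), at an unadjusted p of 0.00194 and an adjusted p in edgeR of 0.527. Zfp827 (chromosome 8, 79028437 to 79193766), which recruits the NuRD complex to telomeres, had 74.3, 92.5, 102 and 92.2 CPM and then 92.3, 112, 120 and 101 CPM, a difference of 0.24 on the log2 scale with a standard error of 0.07 (adjusted p in edgeR = 0.536). These were the 2 genes called by ComBat followed by DESeq2. The unpaired DHPG replicate 5 lay at 122 CPM for Zfp532 and 74.9 CPM for Zfp827, within and at the low end of the basal values.

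Zfp423 (log2 fold change 0.27), Zfp609 (0.26), a partner of Nipbl in the developing cortex, and Zfp628 (0.36) came next, with adjusted p in edgeR from 0.537 to 0.544. Zfp423 and Zfp609 were higher in 4 of 4 pairs. Zfp628 was higher in 3 of 4 pairs, from 17.8, 24.0, 30.99 and 11.1 CPM to 22.6, 23.7, 35.1 and 22.3 CPM, and basal and DHPG values overlapped. Without replicate 4 its log2 fold change was 0.17. None of these 5 had a KRAB box pattern.

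In RPF the balance lay on the other side. No member passed an adjusted p of 0.05, where 29 of 13208 genes tested (0.22%) did. At an unadjusted p under 0.05, 15 members (7.85%) were lower and 2 (1.05%) higher, against 4.21% and 6.55% of all genes tested. DESeq2 with the block called 0 members, with 2 at an unadjusted p under 0.05, and ComBat followed by DESeq2 called 0, with 16. Shares over all genes were not taken in these DESeq2 fits. Of the 191 members, 75 (39.3%) had a higher and 116 a lower estimate, against 51.4% higher over all genes tested. The median was -0.029 (0.0031 for all genes tested), with a range from -0.27 to 0.16 and a median standard error of 0.07.

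The lower median was seen in each of the 5 pairs. It was -0.044, -0.038, -0.030, -0.036 and -0.039 in pairs 1 to 5, while the medians of all genes tested ran from -0.0027 to 0.012. Between 73 and 79 of the 191 members were higher after DHPG in a pair. The shift is smaller than the median standard error of a single member, and no p is given for it because the members were chosen with results of these data known.

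Zfp329 (chromosome 7, 12804977 to 12818858) had 19.9, 20.9, 17.9, 17.0 and 17.0 CPM of RPF in basal replicates 1 to 5 and 16.2, 17.4, 16.4, 13.2 and 16.2 CPM in their DHPG partners. It was lower in 5 of 5 pairs, and its log2 fold change was -0.21 with a standard error of 0.07 (unadjusted p = 0.00424, adjusted p in edgeR = 0.226). Zfp189 (chromosome 4, 49521176 to 49531517) had 26.2, 26.3, 25.4, 30.1 and 26.1 CPM and then 24.7, 22.7, 24.2, 25.3 and 22.2 CPM, so that every DHPG value was below every basal value (log2 fold change -0.17, adjusted p in edgeR = 0.246). Zfp62 also went from a higher to a lower value in 5 of 5 pairs (-0.17, adjusted p in edgeR = 0.249). Zfp397 (-0.20) and Zfp101 (-0.24) were lower in 4 of 5 pairs, with adjusted p in edgeR of 0.249 and 0.312. These 5 members were picked for the smallest p in the same pairs, so the agreement of their pairs is a description.

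**Figure D3:**
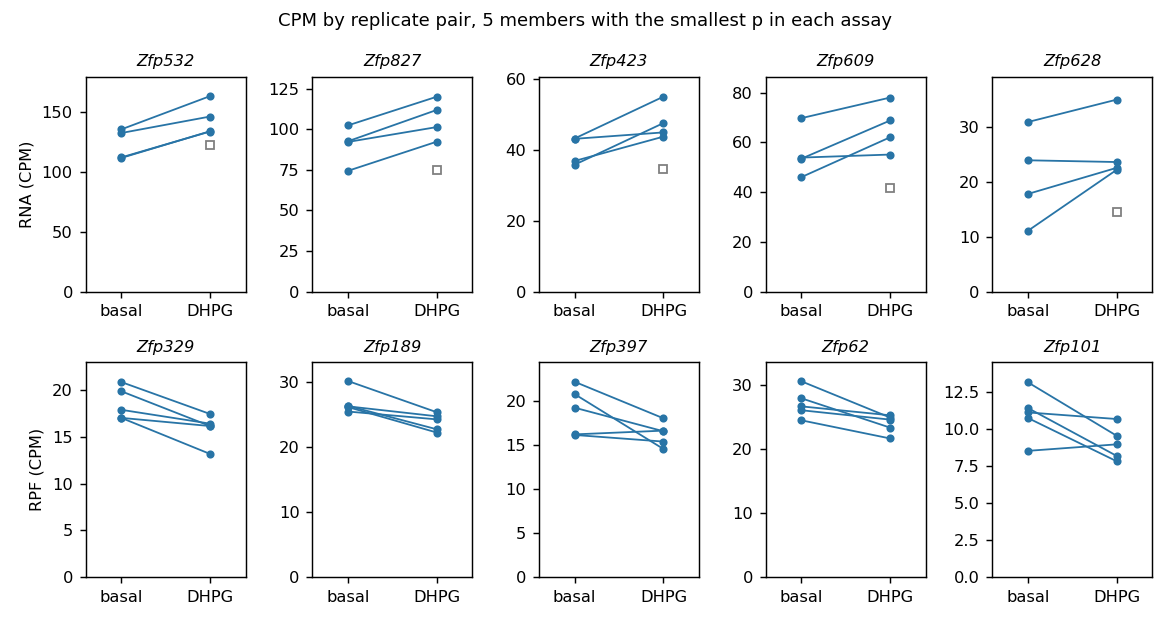
CPM (y axis, from 0) in basal and DHPG slices (x axis) of the 5 members with the smallest p in RNA (top row) and in RPF (bottom row). Lines join the libraries of one replicate number and the open square is DHPG RNA replicate 5, which has no partner. Lines rise in 4 of 4 pairs for Zfp532, Zfp827, Zfp423 and Zfp609, and fall in 5 of 5 pairs for Zfp329, Zfp189 and Zfp62. The genes were picked by their p from these same pairs, so the agreement of pairs follows in part from that choice.

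Members with and without a KRAB box pattern had different medians in RNA, though their quartiles overlapped (-0.15 to 0.0066 with and -0.055 to 0.16 without it). Members with the pattern also lay closer to the count minimum, with a median of 83 basal RNA counts against 142.875. The part of the choice by basal counts in this difference was not tested. Of the 79 with the pattern, 57 had a lower estimate after DHPG, with a median log2 fold change of -0.069, and an unadjusted p under 0.05 was reached by 0 higher and 3 lower members (5.2% and 2.81% of all genes tested). Of the 112 without it, 74 had a higher estimate, with a median of 0.058, and 16 were higher and 1 lower. The 3 lower KRAB members were Zfp369, Zfp551 and Zfp941, at -0.20, -0.37 and -0.28, chosen for naming after their values were seen.

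The order of the classes was the same in each RNA pair. The medians with and without the pattern were -0.15 and -0.011 in pair 1, -0.092 and -0.014 in pair 2, 0.040 and 0.16 in pair 3, and -0.090 and 0.10 in pair 4. Both classes thus moved with the pair, and the class with the pattern lay lower each time. In RPF the medians of the classes over all pairs were -0.028 and -0.030, and their order differed between pairs: the KRAB class was lower in pairs 1, 2, 4 and 5, and higher in pair 3, at 0.020 against -0.080. With each replicate left out in turn, the RPF medians ran from -0.049 (without replicate 3) to -0.0085 (without replicate 2) with the pattern and from -0.037 (without replicate 4) to -0.011 (without replicate 3) without it.

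**Figure D4:**
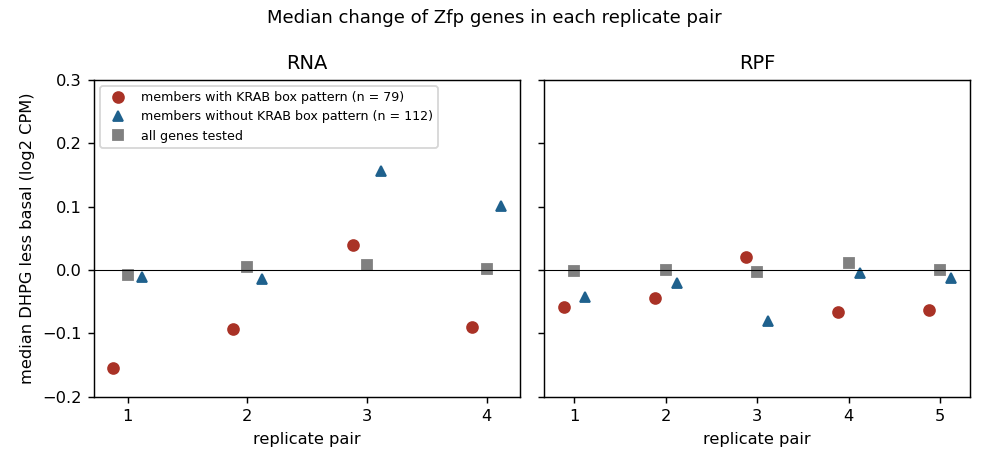
Median difference of log2 CPM between DHPG and basal (y axis) in each replicate pair (x axis) for RNA (left) and RPF (right), over members with a KRAB box pattern (circles), members without it (triangles) and all genes tested (squares). In RNA the circle lies below the triangle in 4 of 4 pairs, and in RPF in 4 of 5.

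The KRAB classes also differ in GC content, with medians of 44.5% and 51.1%, and GC content moved with the RNA change. Spearman's rho between them was 0.44 over the members and 0.29 over all 10216 genes with lengths. With each library's trend in GC content and length removed, the medians were -0.048 with and 0.027 without the pattern, and 59 of 79 and 44 of 112 were lower. Under the median GC content of the members, 43 of 55 KRAB members and 19 of 40 others had a lower estimate in RNA (medians -0.085 and 0.010). At or over it, these were 14 of 24 and 19 of 72 (medians -0.014 and 0.089). GC content still differed between the classes at or over it, with medians of 51.8% with and 55.5% without the pattern, against 43.2% and 43.4% under it. No test of the difference between the classes was made.

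**Figure D5:**
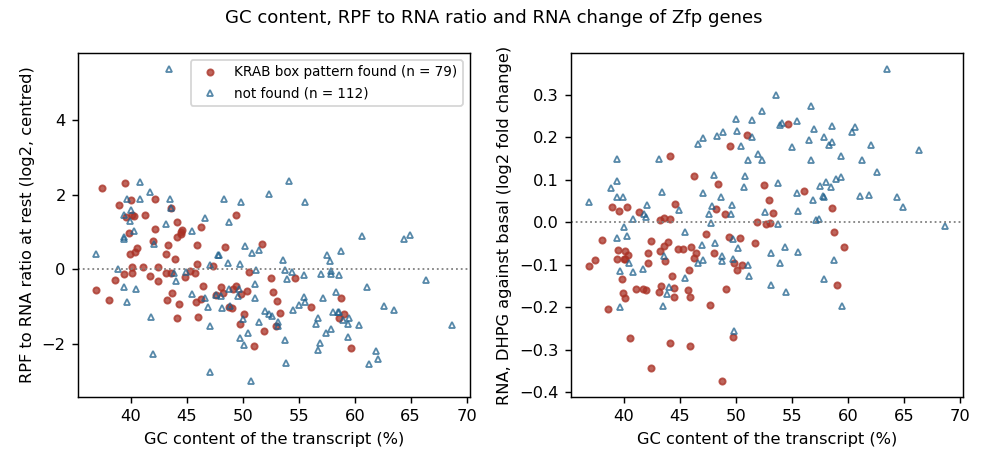
GC content of the annotated transcript (x axis, percent) against the RPF to RNA ratio at rest (left, log2) and the RNA log2 fold change of DHPG against basal (right) for the 79 members with a KRAB box pattern (filled circles) and the 112 without (open triangles). The ratio falls with GC content in both classes (rho -0.51 over all members), while the RNA change rises with it (rho 0.44).

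The change of the RPF to RNA ratio was tested by fitting RNA and RPF libraries together in edgeR (19 libraries). The fit asked whether the DHPG effect differed between them. Its basal RNA libraries also chose the members, so the counts of members may depend in part on the choice. No member passed an adjusted p of 0.05, as was the case for all 12691 genes tested (0%). At an unadjusted p under 0.05, 2 members were higher and 11 lower (3.08% and 3.61% of all genes tested), and limma on the differences of log2 CPM gave 3 and 7 with 0 called. The median over members was -0.036, with 119 of 191 lower. With each replicate left out, it ran from -0.061 (without replicate 2) to -0.014 (without replicate 3). The count of lower members at an unadjusted p under 0.05 was 22 without replicate 2. That count was 6 without replicate 3 or without replicate 4. Shares over all genes were not taken for limma or for the fits with a replicate left out. Among the 112 members without a KRAB box pattern 85 were lower (median -0.088), and among the 79 with it 34 were (median 0.024). The class medians were close in RPF (-0.028 with and -0.030 without the pattern) and apart in RNA (-0.069 and 0.058). The class difference in the ratio is thus no separate result from that in RNA, since the same RNA libraries enter both. The 11 lower members were all without the pattern, the lowest being Zfp628 at -0.48 (standard error 0.14, adjusted p in edgeR = 0.657).

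Split by C2H2 patterns, RPF estimates were lower in 70 of the 102 members with 10 or more patterns (median -0.060), of which 12 reached an unadjusted p under 0.05 as lower and 1 as higher. In the 89 members with under 10 patterns, 46 were lower (median -0.0033), with 3 lower and 1 higher. Over all genes tested 4.21% were lower and 6.55% higher at that p. In RNA the medians of these classes were -0.041 and 0.026.

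The partners of the KRAB box were counted as a list of 19 corepressor genes, among them Trim28, Setdb1 and the heterochromatin protein genes Cbx1, Cbx3 and Cbx5. None passed the thresholds in RNA, RPF or their ratio. In RNA 7 of 19 had a higher and 12 a lower estimate (median -0.074), with 1 higher at an unadjusted p under 0.05. In RPF 17 of 19 had a lower estimate (median -0.034), of which 4 reached an unadjusted p under 0.05. The direction was not the same in every pair. The median difference of the list was -0.080, -0.087, -0.038, 0.0066 and -0.0032 in RPF pairs 1 to 5. It was -0.16, -0.16, 0.12 and 0.028 in RNA pairs 1 to 4. Over all genes tested 52.1% had a higher estimate in RNA and 51.4% in RPF, and 4.21% were lower in RPF at that p. The 30 Zbtb genes also lay mostly lower in RPF (22 of 30, median -0.038) and mostly higher in RNA (19 of 30, median 0.077), with 0 called in either. At an unadjusted p under 0.05 there were 0 in RPF, and 1 higher and 1 lower in RNA (5.2% and 2.81% of all genes tested). Their direction also differed between pairs. The medians were -0.030, -0.034, 0.049 and 0.13 in RNA pairs 1 to 4. In RPF pairs 1 to 5 they were -0.0096, 0.022, -0.032, -0.045 and -0.020.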

How the data were processed

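All 19 samples of the series were used. For each assay the authors deposited a table of expected counts, made with RSEM, rounded to whole numbers and not normalized. Per the labels and the study's methods, adapters were trimmed with cutadapt, rRNA and tRNA reads were removed with Bowtie2, the rest were aligned to mm10 with TopHat2, and only uniquely mapped reads without duplicates were kept. RPFs were counted on RefSeq coding sequences without 30 bases at each end, RNA on whole transcripts. A further 12 columns match no sample here and were left out.

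The members, the lists and the splits were chosen with earlier results of these data known. Lengths, GC content and positions came from GENCODE M21 (99.4% of genes matched), with 1 transcript per gene in place of the isoforms the authors used. C2H2 and KRAB box patterns were searched in translated GENCODE coding sequences in place of RefSeq proteins, the KRAB box within the first 300 residues. Named genes were the 5 with the smallest p in each assay, the 5 highest in basal RNA per length, the 5 highest and 5 lowest in ratio at rest, and the role lists. No member passed a threshold in RNA, RPF or the change of their ratio.

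R 4.3.3 with edgeR 4.0.16 (TMM, filterByExpr, quasi-likelihood F test, Benjamini-Hochberg adjustment over all genes tested), limma 3.58.1, DESeq2 1.42.0 and sva 3.50.0 was used. Every adjusted p is from edgeR unless another tool is named. Adjusted p thresholds were 0.01 for RNA and 0.05 otherwise. All 191 members passed the filter on low counts in every fit. Log2 CPM used a prior count of 2. Replicate numbers, taken as the study's batches though the labels name no batch, were a block. Deviations of libraries with the same number correlated at 0.308 to 0.741 in RNA and 0.259 to 0.523 in RPF. However, RNA replicate 2 correlated higher with a library of another number (0.467) than with its own (0.308). Scripts were tested on simulated data.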

Additional observations from a re-analysis of the deposited data

Results flagged for a closer look

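Of 52 groups of values screened for a single value apart from the rest, 2 had one, where chance gives 2.6. Zfp189 had 30.1 CPM in basal RPF replicate 4, and the other 4 basal replicates lay between 25.4 and 26.3 CPM. The median difference between DHPG and basal RPF over the 79 members with a KRAB box pattern was 0.020 on the log2 scale in replicate pair 3, and the other 4 pairs lay between -0.066 and -0.045.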

How the results depend on the processing

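The count of members called was the same under each alternative run in RPF and in the change of the ratio, and in RNA under each but one: ComBat followed by DESeq2 called 2 members, Zfp532 (adjusted p 0.000769, 0.000769 to 0.9999 over its alternatives) and Zfp827 (0.00490, 0.00490 to 0.9999). The cause was not tested. The median ratio at rest was -0.50 over members with a mean of 100 or more counts and ran from -0.34 to -0.23 with each replicate left out. Without the replicate block, 0 members were called in RNA and RPF, and 16 and 4 RNA members at an unadjusted p under 0.05 became 0 and 0, with KRAB class medians of -0.029 and 0.058; in RPF 2 and 15 became 0 and 5. In the change of the ratio without the block, the KRAB class median was -0.026 in place of 0.024. The block changed no call. With each replicate number left out in turn, the RNA medians ran from -0.11 to -0.047 with the KRAB box pattern and from 0.021 to 0.076 without it, the RNA median over members from -0.039 to 0.0092, and the RPF median from -0.032 to -0.021. RNA members at an unadjusted p under 0.05 ranged from 5 to 22 higher and 2 to 8 lower, with 5 higher without replicate 4 and 8 lower without replicate 3, and 12 higher without the unpaired replicate 5. In the DHPG ratio 52 to 58 were called higher and 94 to 99 lower, and without length offsets 43 and 87 (median -0.25). Apart from the RNA calls of ComBat followed by DESeq2, shares over all genes were not taken in these alternatives. Their counts therefore do not show how members compare with other genes. Leaving out the 25 members with shared coding windows, chosen after seeing the data, gave medians of -0.24 (ratio at rest), -0.39 (DHPG), 0.0085 (RNA) and -0.031 (RPF). Counts limit the precision: the median standard error was 0.12 for a member's RNA change and 0.07 for RPF.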
